A study of Mus musculus with 8 samples.

Results

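The retinoic acid genes described here are 9 genes that make, degrade, take up, bind or sense retinoic acid in the mouse embryo: Aldh1a1, Aldh1a2 and Aldh1a3 (synthesis), Cyp26a1 and Cyp26b1 (breakdown), Stra6 (uptake of the precursor), Crabp1 and Crabp2 (binding in the cytoplasm) and Rarb (nuclear receptor). They were taken by symbol from a table of 36317 genes, and 8 of the 9 were among the 17022 genes tested, those that reached 1 RPKM in 2 or more of the 8 libraries. RPKM is a gene's read count divided by its transcript length and by the mapped reads of the library. The ninth, Cyp26a1, lay below that limit and is given by its values alone.

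The study measured bulk RNA from dissected mouse central nervous system in 4 groups of 2 libraries. EED-cKO forebrain at embryonic day E15.5 carries a Sox1 Cre-dependent knockout of Eed, a core subunit of the Polycomb repressive complex that methylates lysine 27 of histone H3. It was set against wt forebrain at E15.5, and wt spinal cord at E13.5 was set against wt forebrain at E13.5. Sox1 is a gene of the early neural ectoderm, so cells of other origin in the dissected tissue (vessels, meninges, blood) are not the cells this Cre is known for. The labels give neither the Cre and Eed genotype of the wt embryos nor a strain. They do not say whether the 2 libraries of a group came from separate embryos or litters, so the spread between libraries may be technical. The p-values rest on that spread pooled over all 4 groups, not on the libraries of a comparison alone. The groups differed in it: the median standard deviation across genes (log2 scale) was 0.117 in wt E15.5 forebrain. It was 0.0543 in EED-cKO forebrain, 0.049 in wt spinal cord and 0.0578 in wt E13.5 forebrain.

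Retinoic acid is made from retinol (vitamin A) in steps: a retinol dehydrogenase gives retinaldehyde, and an Aldh1a enzyme oxidises it to retinoic acid. Cyp26 enzymes degrade it, Crabp proteins carry it in the cytoplasm, and in the nucleus it binds receptors (Rara, Rarb, Rarg) that pair with retinoid X receptors on DNA. In the embryo Aldh1a2 in the mesoderm beside the neural tube is the main early source, and the signal is known for patterning the hindbrain and spinal cord, for activating Hox genes and for motor neuron specification. In the developing forebrain it is known from the meninges and from the striatal primordium.

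Rarb and Cyp26a1 are known direct targets of the receptors, and their promoter sequences are shown for that reason. A retinoic acid response element is a direct repeat of 2 half-sites. The half-site AGGTCA and its known variants AGTTCA, also GGGTCA, and finally GGTTCA, were searched on both strands as direct repeats with 1, 2 or 5 bases between them, in the 250 bases before to 50 bases after each annotated start (RefSeq, GRCm38.p6), and no promoter held more than 1 of the 3 spacings. Of the 9 genes, 7 matched the promoter table, and Rarb and Cyp26a1 each held 1 repeat with a spacing of 5. That spacing was present in 32 of 32851 promoters (0.0974%) and any of the 3 spacings in 193 (0.588%). Capitals mark the half-sites.
Rarb, chr14:16575507-16575535, minus strand, the repeat lying 53 to 37 bases before the start: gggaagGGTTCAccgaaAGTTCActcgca
Cyp26a1, chr19:37697770-37697798, plus strand, the repeat lying 32 to 16 bases before the start and reading on the opposite strand: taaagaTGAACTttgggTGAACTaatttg
Read on its own strand, the Cyp26a1 repeat is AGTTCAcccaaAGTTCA and the Rarb repeat is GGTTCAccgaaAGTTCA, so both share the second half-site. Of 53 other genes of the pathway, 38 matched the promoter table and 1 held a repeat, which was not of spacing 5. These are matches of letters, and no binding was measured.

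Of the 8 tested genes, 5 were higher and 2 lower in EED-cKO than in wt forebrain, with a median log2 difference of 0.61 against 0.08 over all tested genes (limma on log2(RPKM + 1), adjusted p under 0.05). Among all tested genes 46.9% passed the same test, 30.2% higher and 16.7% lower, so a call by itself was common in this comparison. The EED-cKO and wt libraries did not overlap for the 7 called genes, against 70.3% of all tested genes, 42.6% higher and 27.6% lower. In wt E13.5, 6 of the 8 were higher and 1 lower in spinal cord than in forebrain, with a median of 1.32 against 0.0, where 45.7% of all tested genes passed, 21.8% higher and 23.9% lower. The cord and forebrain libraries did not overlap for those 7, against 76.3% of all tested genes, 37% higher and 39.3% lower. The share of called genes that were higher in EED-cKO was 64.5% in the values as deposited, 48.8% after median ratio scaling and 45.1% after quantile normalization, which moved the median of all genes from 0.08 to -0.01 and -0.05. The direction of each called retinoic acid gene was the same under both scalings.

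**Figure D1:**
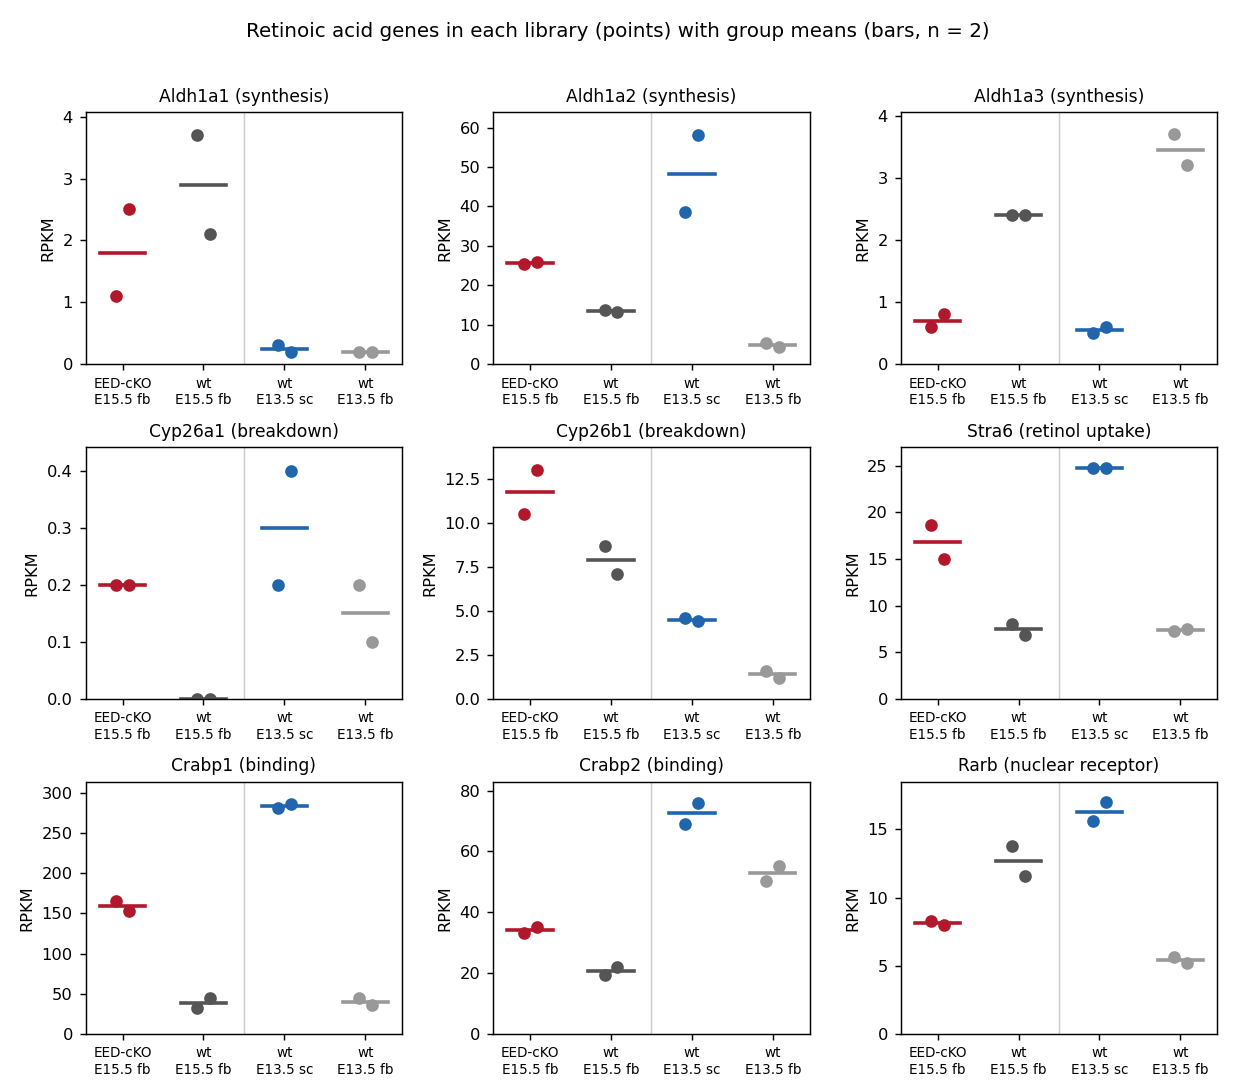
RPKM of the 9 retinoic acid genes in each library (points) with group means (bars, n = 2), each gene on its own linear axis. fb is forebrain and sc spinal cord, and levels to the left and right of the grey line come from ages whose RPKM columns sum to different totals. Crabp1 stood at 166.1 and 153.3 RPKM in EED-cKO forebrain and at 281.5 and 286.0 in spinal cord, above both forebrain wt groups, while Rarb was lower in EED-cKO than in wt forebrain.

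Before the values, a fault of the table has to be given. The row names fit the E13.5 columns as they stand, but the E15.5 columns follow another alphabetical order, with case and hyphens ignored, and were put back in that order: 6 of the 9 genes moved to another row (Stra6, Aldh1a1, Aldh1a2, Aldh1a3, Cyp26a1 and Cyp26b1) and 3 (Crabp1, Crabp2 and Rarb) did not. The correlation of wt forebrain between the ages, across genes, was 0.76 before the rows were restored and 0.948 after. In windows of 41 genes around each of the 9 genes it was 0.88 to 0.97 at the restored row and at most 0.63 when shifted by up to 4 rows. Eed, whose row did not move, was 10 and 10.6 RPKM in EED-cKO forebrain and 25.8 and 27.9 RPKM in wt forebrain, so its RNA was lower but still present in the knockout tissue (log2 difference -1.30 ± 0.085 SE, limma adjusted p = 8.65e-05). In wt E13.5, Eed was also lower in spinal cord, at 19.1 and 17.0 RPKM, than in forebrain, at 31.2 and 34.0 RPKM (-0.82 ± 0.085, limma adjusted p = 0.000298). RPKM columns summed to 761647 to 843296 at E15.5 and to 378294 to 397320 at E13.5, so no difference between ages was tested, and the read depth behind each value is unknown.

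Aldh1a2 was the synthesis enzyme with the highest level in every library, and it was higher in both EED-cKO forebrain and wt spinal cord than in their wt forebrain counterparts. It was 25.4 and 25.8 RPKM in EED-cKO forebrain, against 13.8 and 13.1 RPKM in wt forebrain. The libraries did not overlap, and the ratio of means was 1.9 (log2 difference 0.88 ± 0.18 SE, limma adjusted p = 0.00671). In wt E13.5 it was 38.5 and 58.1 RPKM in spinal cord, against 5.4 and 4.4 RPKM in forebrain. The cord libraries differed from each other more than those of any other group, and both lay far above forebrain (ratio 9.86, log2 difference 3.04 ± 0.18 SE, limma adjusted p = 2.42e-05). Of all tested genes, 0.429% were higher in spinal cord by as much or more. The EED-cKO call was lost with no filter on low values (0.88 ± 0.21, adjusted p = 0.0511) and without EED-cKO replicate 2 (0.87 ± 0.25, adjusted p = 0.0573), where the error was larger and the difference about as large, with adjusted p of 0.00241 to 0.0796 over its 18 alternatives. With only the 4 libraries of the comparison the difference was 0.88 with a smaller error of 0.067, and the call held (limma adjusted p = 0.0115). The error of the main fit also includes the spread of the spinal cord libraries. In the deposited row order the Aldh1a2 difference was -0.48.

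Aldh1a3, the synthesis enzyme known from the ventral telencephalon and the eye, went the other way in both comparisons. It was 0.6 and 0.8 RPKM in EED-cKO forebrain, against 2.4 RPKM in both wt forebrain libraries. The difference was -1.0 ± 0.10 (log2, SE, limma adjusted p = 0.000388), and 1.2% of tested genes were lower by as much or more. Spinal cord had 0.5 and 0.6 RPKM, against 3.7 and 3.2 RPKM in E13.5 forebrain (-1.52 ± 0.10, limma adjusted p = 3.89e-05). Levels in both comparisons were low, and the pseudocount of 1 understates such folds: with a pseudocount of 0.1 the log2 differences were -1.66 and -2.45. In the deposited row order the EED-cKO difference was -0.49 (adjusted p = 0.202, the highest of its 18 alternatives, the lowest being 9.38e-05).

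Aldh1a1, the third synthesis enzyme, did not pass the test in either comparison. It was 1.1 and 2.5 RPKM in EED-cKO forebrain, against 3.7 and 2.1 RPKM in wt forebrain, so the libraries overlapped. The log2 difference was -0.49 ± 0.27 SE with a 95% interval of -1.12 to 0.13 (limma adjusted p = 0.168). It was 0.3 and 0.2 RPKM in spinal cord and 0.2 RPKM in both E13.5 forebrain libraries, a log2 difference of 0.06 with an interval of -0.57 to 0.68. The gene entered the test through its E15.5 libraries alone. After quantile normalization it was called lower in EED-cKO (-0.88, adjusted p = 0.0212, with 0.0212 to 0.823 over its 18 alternatives). Aldh1a1 has a close copy, Aldh1a7, with 1.2 RPKM in both EED-cKO libraries and 1.0 and 0.8 RPKM in wt forebrain. How the authors' counting divided reads between such copies is not given in the sources used here, so the Aldh1a1 values are uncertain.

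Together the 3 Aldh1a genes summed to 27.1 and 29.1 RPKM in EED-cKO forebrain and 19.9 and 17.6 RPKM in wt forebrain. In wt E13.5 the sums were 39.3 and 58.9 RPKM in spinal cord and 9.3 and 7.8 RPKM in forebrain. Aldh1a2 made up 93.7% and 88.7% of the sum in EED-cKO forebrain, against 69.3% and 74.4% in wt forebrain. It made up 98.0% and 98.6% in spinal cord, against 58.1% and 56.4% in E13.5 forebrain. Both forebrain wt groups thus drew a larger part of their Aldh1a RNA from the other two genes than EED-cKO forebrain or spinal cord did.

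Cyp26b1, the breakdown enzyme with the higher level of the 2, was higher in EED-cKO forebrain and in spinal cord. It was 10.5 and 13.0 RPKM in EED-cKO forebrain and 8.7 and 7.1 RPKM in wt forebrain (log2 difference 0.52 ± 0.14 SE, limma adjusted p = 0.0226). Among the 7 retinoic acid genes called in EED-cKO forebrain, its call was lost in the most alternatives. The call was lost with no filter on low values (adjusted p = 0.0895), after quantile normalization (0.28, adjusted p = 0.101), with only the 4 libraries of the comparison (adjusted p = 0.0996), without wt E15.5 replicate 2 (0.39, adjusted p = 0.115) and without EED-cKO replicate 2 (0.38, adjusted p = 0.146), out of 18 alternatives with adjusted p of 0.00562 to 0.146. In wt E13.5, Cyp26b1 was 4.6 and 4.4 RPKM in spinal cord and 1.6 and 1.2 RPKM in forebrain (1.20 ± 0.14, limma adjusted p = 0.000556). That difference held in every alternative run.

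Cyp26a1, the other breakdown enzyme and carrier of the repeat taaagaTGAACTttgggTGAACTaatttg, was near the bottom of the scale. It was 0.2 RPKM in both EED-cKO libraries and listed at 0 in each wt forebrain library of the same age. It was 0.2 and 0.4 RPKM in spinal cord and 0.2 and 0.1 RPKM in E13.5 forebrain. The values are deposited in steps of 0.1, so these libraries stand at most 4 steps above 0, and no fold is given. The 2 breakdown enzymes summed to 10.7 and 13.2 RPKM in EED-cKO forebrain and 8.7 and 7.1 RPKM in wt forebrain.

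Stra6, the membrane receptor that takes up retinol from its carrier in blood, was higher in EED-cKO forebrain and in spinal cord than in wt forebrain of the same age. It was 18.7 and 15.0 RPKM in EED-cKO forebrain, against 8.0 and 6.9 RPKM in wt forebrain (log2 difference 1.07 ± 0.11 SE, limma adjusted p = 0.000474). It was 24.8 RPKM in both spinal cord libraries, against 7.3 and 7.5 RPKM in E13.5 forebrain (1.62 ± 0.11, limma adjusted p = 5.17e-05). Both differences held with every library left out in turn. The EED-cKO difference rests on the restored row order: in the deposited order it was -0.15 (adjusted p = 0.148, the highest of its 18 alternatives, the lowest being 0.000309).

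Crabp1, a binding protein that carries retinoic acid in the cytoplasm and is known from differentiating neurons of the brainstem and spinal cord, had the largest EED-cKO difference of the 9 genes, and the highest level of them in each group but wt E13.5 forebrain, where Crabp2 was higher. It was 166.1 and 153.3 RPKM in EED-cKO forebrain, against 32.5 and 44.9 RPKM in wt forebrain. The ratio of means was 4.13 (log2 difference 2.03 ± 0.15 SE, limma adjusted p = 0.000141), and 0.728% of tested genes were higher by as much or more. In wt E13.5 it was 281.5 and 286.0 RPKM in spinal cord, against 44.1 and 36.2 RPKM in forebrain (ratio 7.07, log2 difference 2.80 ± 0.15 SE, limma adjusted p = 1.96e-05). The row of Crabp1 is the same in the deposited and restored orders, and both differences passed the test in every alternative run.

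Crabp2, which passes retinoic acid to its nuclear receptors, differed in the same directions by less. It was 33.0 and 35.2 RPKM in EED-cKO forebrain, against 19.2 and 21.9 RPKM in wt forebrain (log2 difference 0.71 ± 0.089 SE, limma adjusted p = 0.000934). It was 69.2 and 76.0 RPKM in spinal cord, against 50.4 and 55.2 RPKM in E13.5 forebrain (0.45 ± 0.089, limma adjusted p = 0.00548). The 2 Crabp genes summed to 199.1 and 188.5 RPKM in EED-cKO forebrain and 51.7 and 66.8 RPKM in wt forebrain. Crabp1 was 83.4% and 81.3% of that sum in EED-cKO forebrain, against 62.9% and 67.2% in wt forebrain. In wt E13.5, Crabp1 was 80.3% and 79.0% in spinal cord, against 46.7% and 39.6% in forebrain.

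Rarb, the receptor whose promoter holds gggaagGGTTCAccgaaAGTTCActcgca, was the one gene of the 9 called in opposite directions in the 2 comparisons. It was 8.3 and 8.0 RPKM in EED-cKO forebrain, against 13.8 and 11.6 RPKM in wt forebrain. It was lower in EED-cKO (log2 difference -0.58 ± 0.10 SE, limma adjusted p = 0.00336), and 4.14% of tested genes were lower by as much or more. In wt E13.5 it was 15.6 and 17.0 RPKM in spinal cord, against 5.6 and 5.2 RPKM in forebrain (1.43 ± 0.10, limma adjusted p = 4.91e-05). Its row is the same in both orders, and both calls held in every alternative run. In the GENCODE M21 annotation 1793 of the 5265 exonic bases of Rarb overlap exons of Top2b on the opposite strand, and the libraries were unstranded, so reads there cannot be assigned to either gene. Top2b was 108.5 and 105.1 RPKM in EED-cKO forebrain and 120.0 and 106.6 RPKM in wt forebrain (-0.08 ± 0.085, limma adjusted p = 0.465). It was lower in spinal cord, at 84.8 and 96.3 RPKM, than in E13.5 forebrain, at 107.4 and 112.2 RPKM (-0.28 ± 0.085, limma adjusted p = 0.0332), while Rarb was higher there.

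**Figure D2:**
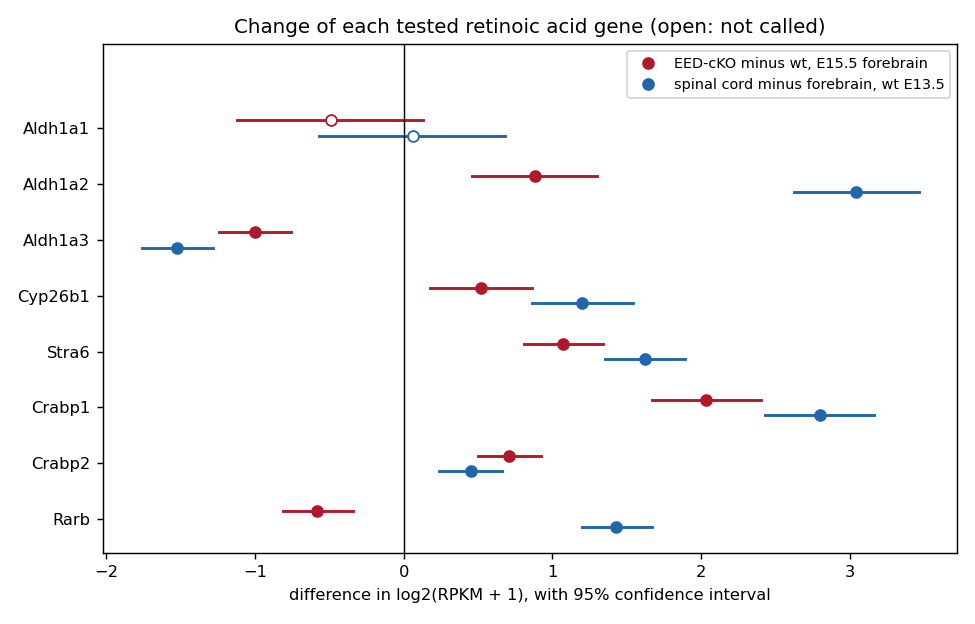
Difference in log2(RPKM + 1) of the 8 tested retinoic acid genes, EED-cKO minus wt in E15.5 forebrain (red) and spinal cord minus forebrain in wt E13.5 (blue), with 95% intervals from limma; open points did not pass adjusted p under 0.05. Crabp1 at 2.03 and 2.80, Stra6 at 1.07 and 1.62 and Aldh1a2 at 0.88 and 3.04 lie right of 0 in both, Aldh1a3 lies left in both, and Rarb lies on opposite sides.

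Of the other receptors in EED-cKO forebrain, Rara, Rarg and Rxra were higher, and Rxrg and Rxrb were lower, as Rarb was. Rara and Rarg are the 2 other retinoic acid receptors. Rara was 15.1 and 15.6 RPKM in EED-cKO forebrain, against 10.2 and 8.8 RPKM in wt forebrain (log2 difference 0.64 ± 0.089 SE, limma adjusted p = 0.00136), and Rarg was 12.8 and 13.7 RPKM against 8.2 and 8.0 RPKM (0.65 ± 0.093, limma adjusted p = 0.00157). The 3 receptors summed to 36.2 and 37.3 RPKM in EED-cKO forebrain and 32.2 and 28.4 RPKM in wt forebrain. Rarb's part of that sum was 22.9% and 21.4% in EED-cKO forebrain, against 42.9% and 40.8% in wt forebrain. Rxrg, a retinoid X receptor known, like Rarb, from the striatum, was lower in EED-cKO forebrain, at 4.4 and 6.4 RPKM, than in wt forebrain, at 20.7 and 22.7 RPKM (-1.84 ± 0.17, limma adjusted p = 0.000262). Rxra, another partner receptor, was higher, at 13.3 and 13.4 RPKM in EED-cKO and 9.0 and 7.5 RPKM in wt forebrain (0.64 ± 0.093, limma adjusted p = 0.00169). Rxrb, the third retinoid X receptor, was 60.1 and 57.0 RPKM in EED-cKO and 66.4 and 74.3 RPKM in wt forebrain (-0.26 ± 0.072, limma adjusted p = 0.0226), a call lost in 5 of 19 alternatives. In wt E13.5, Rarb and Rara were both higher in spinal cord: Rara was 17.1 and 18.4 RPKM there and 7.2 and 6.8 RPKM in forebrain (1.23 ± 0.089, limma adjusted p = 5.83e-05). Rxrg was also higher in cord, at 6.1 and 4.8 RPKM against 1.7 and 1.6 RPKM (1.28 ± 0.17). Rarb's part of the 3 receptors was 40.5% and 42.1% in spinal cord, against 29.5% and 29.4% in E13.5 forebrain.

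**Figure D3:**
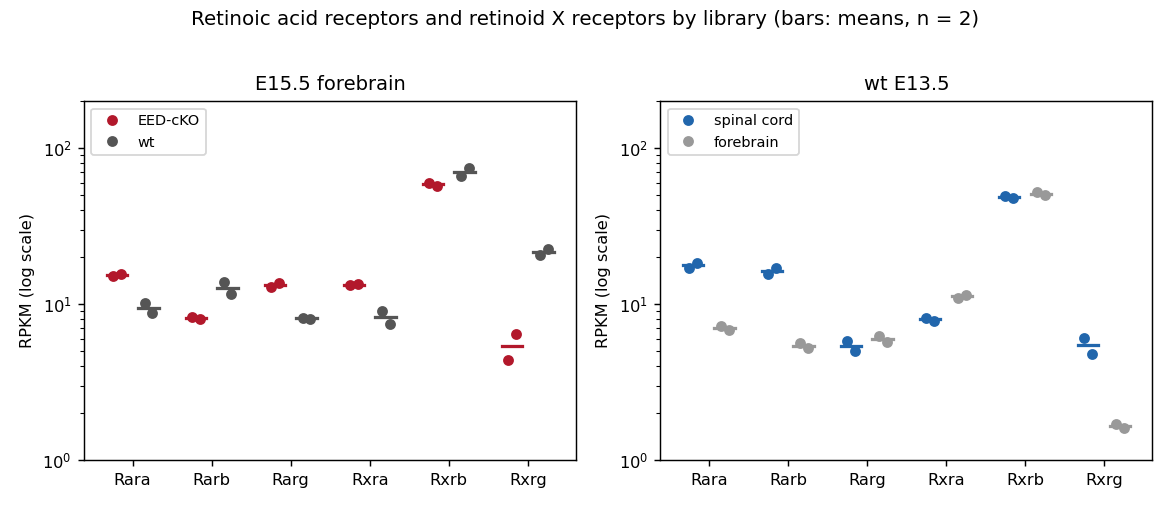
RPKM on a log scale of the retinoic acid receptors (Rara, Rarb, Rarg) and retinoid X receptors (Rxra, Rxrb, Rxrg) in each library (points) with means (bars, n = 2), E15.5 forebrain at left and wt E13.5 at right. Rarb, Rxrb and Rxrg lie lower in EED-cKO than in wt forebrain, while Rara, Rarg and Rxra lie higher; Rara, Rarb and Rxrg lie higher in spinal cord than in forebrain.

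Across 5 lists of other genes of the pathway, 40 of 53 genes were tested, and 23 were higher and 9 lower in EED-cKO forebrain. Their median log2 difference was 0.46 against 0.08 over all tested genes. Of all tested genes 46.9% passed, 30.2% higher and 16.7% lower. A gene near 0 in wt forebrain could enter the test through EED-cKO or spinal cord libraries alone, so these counts cover the tested genes only. The number called was 16 with only the 4 libraries of the comparison and 18 without EED-cKO replicate 2, and the count over all genes moved with it, to 4777 and 4922 of the 7987 called with all libraries. Of 12 tested genes for supply, storage and oxidation of retinol, 6 were higher and 3 lower. Rbp4, the carrier of retinol in blood, was 3.7 and 7.4 RPKM in EED-cKO forebrain, against 1.3 and 1.7 RPKM in wt forebrain (1.33 ± 0.26), and Rdh10, the dehydrogenase that makes retinaldehyde for the Aldh1a enzymes, was 21.1 and 21.5 RPKM against 14.7 and 11.2 RPKM (0.69 ± 0.12). Both lost their call with only the 4 libraries of the comparison. Rdh5, another retinol dehydrogenase, was 4.9 and 5.3 RPKM in EED-cKO forebrain against 2.1 RPKM in both wt libraries (0.98 ± 0.15; 720 of its 2809 exonic bases overlap Bloc1s1), and Rbp2, a cytoplasmic retinol carrier, was 1.3 and 1.4 RPKM against 0.3 and 0.1 RPKM (0.97 ± 0.11).

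Fabp5 and Fabp7, cytoplasmic lipid carriers that made up the tested part of the list of other breakdown and binding genes, were both called lower in EED-cKO forebrain, by -0.61 and -0.27 on the log2 scale, but lost the call in 7 and 13 of 18 alternatives and changed sign in 1 each. Among 6 nuclear receptors other than Rarb, 4 were higher and 2 lower. One of the 4, Ppard, a lipid receptor, was 14.2 and 15.7 RPKM in EED-cKO and 12.9 and 9.7 RPKM in wt forebrain (0.39 ± 0.13), a call lost in 14 of 19 alternatives. Among 8 coregulators, 3 were higher and 1 lower, a share near the 46.9% of all tested genes. Ncoa3 and Ep300, coactivators, were called higher by 0.70 and 0.49, and Hdac3, a deacetylase, lower by -0.25, but each lost the call in 3 to 11 alternatives and Ncoa3 and Hdac3 changed sign in 1 each.

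Of 12 tested genes known to respond to retinoic acid, 10 were higher and 1 lower in EED-cKO forebrain, with a median log2 difference of 0.87. Over all tested genes 30.2% were higher and 16.7% lower. Hox genes, which set position along the trunk, were at a listed value of 0 in the wt E15.5 libraries: Hoxd4 was 14.9 and 12.3 RPKM in EED-cKO forebrain, Hoxb4 was 1.9 RPKM in both libraries, and Hoxa4 was 1.7 and 1.6 RPKM. Of the 2948 exonic bases of Hoxd4, 388 overlap exons of Hoxd3 on the same strand, so its reads may be shared. Hox genes are also known targets of Polycomb repression, so this list is not one of retinoic acid response alone. Meis2, a homeobox gene known in the striatal primordium, was lower, at 67.3 and 67.5 RPKM in EED-cKO forebrain and 151.5 and 135.1 RPKM in wt forebrain (-1.07 ± 0.069, limma adjusted p = 8.21e-05). Dhrs3, which turns retinaldehyde back to retinol and is known to rise with retinoic acid, was 14.1 and 16.2 RPKM in EED-cKO forebrain and 10.7 and 10.9 RPKM in wt forebrain (0.45 ± 0.12, limma adjusted p = 0.0226), a call lost in 9 of 18 alternatives.

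In wt E13.5, 18 of the same 40 genes were higher and 5 lower in spinal cord than in forebrain. Their median was 0.34 against 0.0 over all tested genes, of which 45.7% passed, 21.8% higher and 23.9% lower. Of the retinol genes 6 were higher and 2 lower. Stra6l, a relative of Stra6 known for retinol uptake, was 4.0 and 3.5 RPKM in spinal cord and 0.6 and 0.7 RPKM in forebrain (1.52 ± 0.11). Dhrs3 was 10 and 9.4 RPKM in spinal cord and 3.4 and 2.5 RPKM in forebrain (1.45 ± 0.12). Dhrs4, a retinal reductase, was lower in cord, at 8.8 and 8.7 RPKM, than in forebrain, at 21.9 and 21.4 RPKM (-1.22 ± 0.088). Fabp7 was higher by 0.89 ± 0.086. Of the 6 nuclear receptors 2 were higher and 1 lower, the lower one being Rxra at -0.44 ± 0.093, and of the 8 coregulators 1 was lower, Hdac3 at -0.32. Of the responsive genes 9 were higher and 1 lower. Hoxd4 was 46.1 and 47.0 RPKM in spinal cord and listed at 0 in both forebrain libraries, Hoxb4 was 18.0 and 23.3 RPKM, against 0.1 RPKM and a value listed at 0, and Hoxa4 was 10.1 and 13.7 RPKM and listed at 0 in both forebrain libraries. Ret, a receptor tyrosine kinase of motor and sensory neurons, was 14.6 and 12.4 RPKM in cord and 0.7 RPKM in both forebrain libraries (3.09 ± 0.17).

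Levels across the 4 groups were ordered on the RPKM scale and again after rescaling each library to a common sum, because the ages differ in their totals. On both scales Crabp1, Crabp2, Stra6, Rarb and Aldh1a2 had their highest mean in spinal cord, Aldh1a1 in wt E15.5 forebrain and Aldh1a3 in E13.5 forebrain. Cyp26b1 was highest in EED-cKO forebrain on both scales, at 11.8 ± 1.77 RPKM, followed by 7.90 ± 1.13 in wt E15.5 forebrain, 4.50 ± 0.141 in spinal cord and 1.40 ± 0.283 in E13.5 forebrain (SD, n = 2). After rescaling, spinal cord (11.8 ± 0.300) came before wt E15.5 forebrain (9.82 ± 1.98) for that gene, and these neighbours lay within about the spread of the wt E15.5 libraries. For Crabp1, EED-cKO forebrain (159.7 ± 9.05 RPKM) ranked second after spinal cord (284 ± 3.18 RPKM) on both scales, while the 2 wt forebrain groups (38.7 ± 8.77 at E15.5 and 40.2 ± 5.59 at E13.5) could not be separated on the RPKM scale. Stra6 gave the same picture on that scale, with 7.45 ± 0.778 RPKM in wt forebrain at E15.5 and 7.40 ± 0.141 RPKM at E13.5. After rescaling, the libraries of the wt forebrain groups lay apart for both genes, with E13.5 higher. Crabp1 was then 47.6 ± 8.02 at E15.5 and 101 ± 14.4 at E13.5, and Stra6 was 9.25 ± 1.51 and 18.7 ± 0.304. The order of the wt forebrain ages for these genes thus rests on the scale.

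The genes whose level followed each of the 8 tested genes most closely over the 8 libraries are given as a description, by Pearson's r of log2(RPKM + 1). The libraries form 4 groups and 2 ages, so a high r can be set by the order of 4 group means. For Crabp1 they were Eya2, Hoxd4 and Pax2, at 0.994 each, and for Stra6 they were Hoxd4 (0.994), Mog (0.993) and Lbx1 (0.992). Of these, Hoxd4, Pax2 and Lbx1 are known in the hindbrain and spinal cord. Eya2 and Mog, with r about as high, were also present in wt forebrain. In the E15.5 and E13.5 wt forebrain groups Eya2 had means of 6.3 and 6.9 RPKM, and Mog 3.05 and 3.1 RPKM. For Aldh1a2 they were Lbh, Tshz1 and Kcp (0.986, 0.984 and 0.981), and for Aldh1a3 they were E2f1, Slc18a2 and Pbk (0.991, 0.990 and 0.989). Rarb was followed by Npy, Fstl5 and Sema6c at 0.984, 0.975 and 0.967, and Crabp2 by Prdm9, Ank2 and Hsd11b2 at 0.990, 0.985 and 0.983. For Cyp26b1 they were Mfsd6, Abcg4 and Cntn1 (0.998, 0.998 and 0.997), and for Aldh1a1 they were Vkorc1l1, Zfp652os and Dctn4 (0.986, 0.986 and 0.984).

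Markers of other cell types moved with both comparisons, and in bulk RNA more cells of a type and more RNA per cell cannot be told apart. Counts of called markers here and below stand beside the shares over all tested genes. Those were 30.2% higher and 16.7% lower in EED-cKO, and 21.8% higher and 23.9% lower in spinal cord. Aldh1a2 and Crabp2 are known in the meninges. The 14 meninges and mesenchyme markers summed to 862.0 and 1029.4 RPKM in EED-cKO forebrain and 302.5 and 233.6 RPKM in wt forebrain, with 14 of 14 called higher. They included Col1a1, a collagen, at 125.0 and 207.4 RPKM in EED-cKO and 36.6 and 25.2 RPKM in wt forebrain. Stra6 is known in the choroid plexus and the eye. The 11 choroid plexus markers summed to 5963.4 and 4678.0 RPKM in EED-cKO and 2176.7 and 2331.3 RPKM in wt forebrain, 11 of 11 higher. The 14 eye markers summed to 86.2 and 86.0 RPKM in EED-cKO and 16.8 and 18.8 RPKM in wt forebrain, with 6 of 7 tested called higher. Vax2 and Six6, homeobox genes of the ventral eye and of the eye field and hypothalamus, made up most of that sum in EED-cKO forebrain. Vax2 was 31.5 and 29.9 RPKM there and listed at 0 in both wt forebrain libraries, and Six6 was 25.1 and 22.3 RPKM, against 1.9 and 2.3 RPKM in wt forebrain. Rax, another eye field gene, was 3.6 RPKM in both EED-cKO libraries, against 0.8 and 1.3 RPKM in wt forebrain. The 7 untested eye markers, among them the pigment gene Tyr and the lens gene Cryaa, stood at 1.0 RPKM or below in all 4 libraries. The 8 endothelial markers summed to 271.3 and 278.8 RPKM in EED-cKO and 191.4 and 184.1 RPKM in wt forebrain, 8 of 8 higher. The part of these cell types in the differences of Aldh1a2, Crabp2 and Stra6 was not tested.

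Motor neurons, which make retinoic acid with Aldh1a2 in the spinal cord, and the striatum, which is known for Aldh1a3, Rarb and Rxrg, were also followed. The 10 motor neuron markers summed to 83.4 and 79.3 RPKM in EED-cKO and 63.3 and 49.4 RPKM in wt E15.5 forebrain. Of them 6 were called higher and 4 were not called. Isl1, the largest part of that sum and also in the striatal list, was not called. It was 45.2 and 36.0 RPKM in EED-cKO and 32.0 and 27.5 RPKM in wt forebrain. Mnx1, a defining motor neuron gene, was 6.3 and 5.2 RPKM in EED-cKO forebrain, and its listed value was 0 in the wt libraries of that age. The 13 striatal and ventral telencephalic markers, which include Rxrg, summed to 216.1 and 217.1 RPKM in EED-cKO and 208.4 and 189.7 RPKM in wt forebrain, with 4 higher and 6 lower. Gsx2, a gene of striatal progenitors, was 0.4 and 0.6 RPKM in EED-cKO and 3.3 and 3.0 RPKM in wt forebrain (-1.47 ± 0.13), while Ebf1, of striatal neurons, was 15.4 and 17.7 RPKM against 14.4 and 11.9 RPKM and was not called. The part of either cell type in the differences of Aldh1a2, Aldh1a3 and Rarb was not tested.

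**Figure D4:**
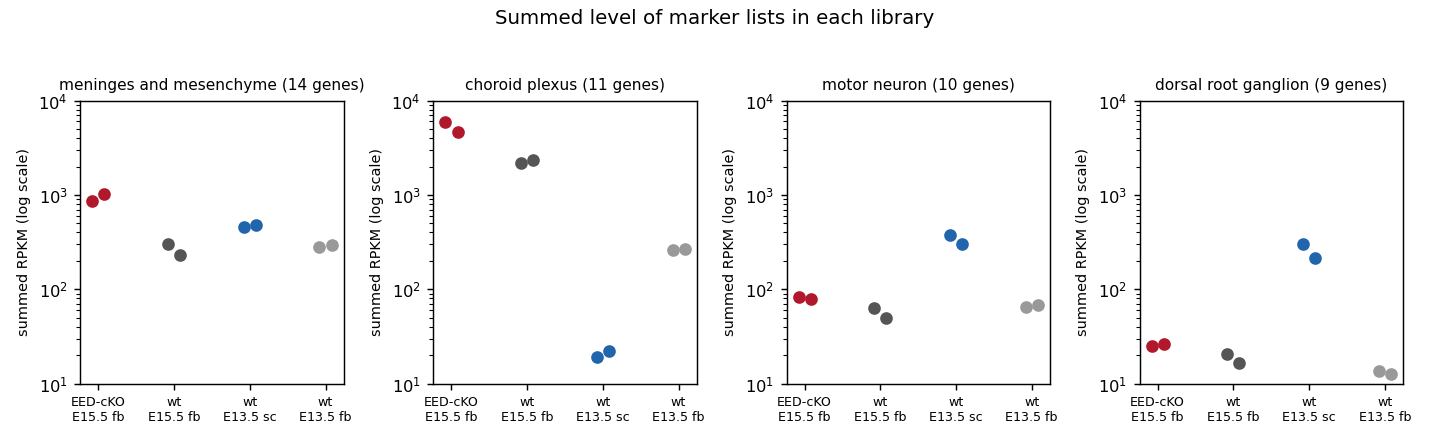
Summed RPKM on a log scale of 4 lists of cell type markers in each library (points); fb is forebrain and sc spinal cord. The meninges and mesenchyme sum was 862.0 and 1029.4 in EED-cKO forebrain, above the 302.5 and 233.6 of wt E15.5 forebrain, and the dorsal root ganglion sum was 298.9 and 216.4 in spinal cord, above the 13.5 and 12.7 of E13.5 forebrain.

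The spinal cord libraries held more RNA of dorsal root ganglia, the sensory ganglia beside the cord. The 9 markers summed to 298.9 and 216.4 RPKM in spinal cord and 13.5 and 12.7 RPKM in E13.5 forebrain, 9 of 9 higher, and Pou4f1, a transcription factor of sensory neurons, was 31.1 and 29.1 RPKM, against 1.1 and 0.6 RPKM. In EED-cKO forebrain the same list had 2 higher and 3 lower, with sums of 24.8 and 26.2 RPKM against 20.7 and 16.5 RPKM in wt forebrain. The motor neuron sum was 380.8 and 303.6 RPKM in spinal cord and 64.3 and 68.4 RPKM in E13.5 forebrain, 9 higher, and the meninges and mesenchyme sum was 460.3 and 482.4 RPKM against 283.5 and 292.0 RPKM, 6 higher and 3 lower. Choroid plexus markers went the other way, at 19.1 and 22.2 RPKM in spinal cord and 259.3 and 266.2 RPKM in E13.5 forebrain, with 8 of 11 lower, while Stra6 was higher in cord. Neither the ganglia's nor the motor neurons' part in the cord differences of the retinoic acid genes was tested.

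The remaining lists were also examined. Skeletal muscle markers summed to 6.9 and 110.7 RPKM in EED-cKO and 5.0 and 6.4 RPKM in wt E15.5 forebrain, so EED-cKO replicate 2 stood apart; of the differences of the retinoic acid genes, the calls of Aldh1a2 and Cyp26b1 were lost without that library and the other 5 held. The log2 difference of Aldh1a2 was 0.87 without it and 0.88 with it, and that of Cyp26b1 was 0.38 without it and 0.52 with it. Skin and olfactory epithelium markers summed to 22.9 and 24.0 RPKM in EED-cKO and 7.0 and 8.5 RPKM in wt forebrain, both tested genes being higher. Red blood cell markers summed to 11533.5 and 12986.6 RPKM in EED-cKO and 8274.2 and 11079.6 RPKM in wt forebrain, with 1 higher and 1 lower of 8. The lower one was Hbb-bt, an adult beta globin gene, at 5.9 and 8.1 RPKM in EED-cKO and 395.4 and 547.4 RPKM in wt forebrain (-5.88 ± 0.21, limma adjusted p = 8.44e-06). Its close copy Hbb-bs was 5109.1 and 5902.3 RPKM in EED-cKO and 3159.1 and 4340.1 RPKM in wt forebrain and was not called (0.57 ± 0.20, limma adjusted p = 0.0556), and how reads were divided between the copies is not given in the sources used here. In wt E13.5 muscle sums were 14.1 and 14.3 RPKM in spinal cord and 20 and 19.5 RPKM in forebrain, skin and olfactory sums were 1.4 and 1.2 RPKM against 6.0 and 4.0 RPKM, and red blood cell sums were 5735.7 and 5629.0 RPKM against 7828.9 and 10496.9 RPKM. Endothelial sums were 140.5 and 127.9 RPKM in spinal cord and 97.9 and 104.2 RPKM in forebrain, with 2 of 8 higher, and striatal sums were 209.0 and 174.2 RPKM against 178.1 and 184.1 RPKM, 6 higher and 4 lower. Eye sums were 10.6 and 9.1 RPKM in spinal cord and 7.1 and 6.9 RPKM in forebrain, with 1 higher and 3 lower of 7 tested.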

How the data were processed

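RNA from 8 libraries was sequenced as unstranded single-end reads after NEBNext Ultra preparation, per the labels' protocols. The authors deposited 1 table of RPKM per gene, rounded to steps of 0.1. Per the submitters' processing notes the builds mm9 and GRCm38 were involved, with no role named, and the aligner and counter are not given in the sources used here. RPKM holds no counts, so depth is unknown and no counting interval is given.

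The E15.5 columns were put back in alphabetical row order, case and hyphens ignored. 23016 of 36333 row names moved. For 16 symbols present more than once, the row of highest mean stood for the gene. Genes that reached 1 RPKM in 2 or more libraries were tested with limma 3.58.1 (R 4.3.3) on log2(RPKM + 1), eBayes with trend, over all 8 libraries in 4 groups, two-sided, with Benjamini-Hochberg adjustment over 17022 genes and a threshold of 0.05. The script was tested on simulated data. A permutation of 2 against 2 libraries cannot go below a two-sided exact p of 0.333. A fold change on this scale understates the change of low genes. Python 3.11.15, pandas 2.3.3 and matplotlib 3.10.9 gave the tables and figures. Promoters are from RefSeq (GRCm38.p6) and exon overlaps from GENCODE M21; since the build behind the RPKM is uncertain, no value rests on coordinates.

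The genes, the 5 pathway lists and the 10 marker lists (meninges and mesenchyme, choroid plexus, eye, motor neuron, dorsal root ganglion, skeletal muscle, endothelial, skin and olfactory epithelium, red blood cell, striatal) were chosen with earlier results of these data known. All 9 retinoic acid genes are named, then of each pathway list up to 4 called genes with the largest changes, of each marker list up to 2 of its first genes, and for likeness the 3 genes with the highest r. Tyr, Cryaa, Vax2, Six6, Mnx1, Hbb-bt, Hbb-bs, Rxrb, Ppard, Top2b and Aldh1a7, and Dhrs3 in EED-cKO forebrain, were named after their values were seen. Same-numbered libraries deviated with a correlation of -0.124 (EED-cKO and wt) and 0.211 (spinal cord and forebrain). Alternatives were another pseudocount, other filters, scalings, libraries, row orders and eBayes settings, a replicate block and each library left out. Some genes that the naming rule picks are not reported here.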

Additional observations from a re-analysis of the deposited data

How the results depend on the processing

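All 7 called differences between spinal cord and forebrain passed in every alternative run, as did those of Crabp1, Crabp2 and Rarb between EED-cKO and wt forebrain; Stra6 and Aldh1a3 lost theirs in the deposited row order alone. In that order 4 of the retinoic acid genes were called in EED-cKO, Stra6 at -0.15 and Aldh1a2 at -0.48. With only the genes whose row is the same in both orders, 3 of 3 retinoic acid genes were called in each comparison, 19 (EED-cKO) and 15 (spinal cord) of 21 other pathway genes, and 4929 and 4792 of 9426 genes, against 7987 and 7784 with all rows; fewer genes are tested there. With only the 4 libraries of the comparison, 16 other pathway genes and 4777 genes were called in EED-cKO. In spinal cord the same setting gave 24 other pathway genes and 8582 genes. Leaving out 1 library at a time gave 5 to 7 retinoic acid genes, 18 to 29 other pathway genes (32 with all libraries) and 4922 to 9606 genes in EED-cKO, and 7, 18 to 27 (23) and 5205 to 9320 in spinal cord; where a group keeps 1 library, it is assumed to vary like the others. The replicate block gave 7608 and 7466 calls over all genes and changed no call of a retinoic acid gene. The labels do not tie same-numbered libraries, so the numbers were not used to pair them; the crossed numbers in EED-cKO, added after seeing the data, gave 8013 genes, 7 retinoic acid genes and 32 other pathway genes. The error of the Aldh1a2 difference in EED-cKO was 0.18 in the main fit, which pools all libraries. It was 0.067 with only the 4 libraries of the comparison, where the Aldh1a2 call held. For Cyp26b1 the error was 0.14 in the main fit and 0.17 with those 4 libraries, where its call was lost. The cause of the lost calls of Cyp26b1 and Aldh1a2 was otherwise not tested.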

Other observations

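Ncor1, a corepressor of the retinoic acid receptors, was chosen after its values were seen. It was 0.8 and 0.9 RPKM in EED-cKO and 0.9 and 0.8 RPKM in wt E15.5 forebrain, against 39.3 and 39.0 RPKM in wt E13.5 spinal cord and 41.1 and 42.4 RPKM in wt E13.5 forebrain. No difference between ages was tested.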
